A study of Homo sapiens with 2 samples.

Results

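The genes described here encode the muscle nicotinic acetylcholine receptor and the proteins that gather it at the neuromuscular junction. The 10 members were fixed by name, 5 receptor subunits (CHRNA1, CHRNB1, CHRND, CHRNE and CHRNG) and 5 clustering genes (MUSK, RAPSN, DOK7, LRP4 and AGRN), out of 19775 genes with a probe set named for that gene alone. Every probe set that the platform annotation assigns to 1 of these genes alone was read, 17 in all. RNA came from HUES9, a human embryonic stem cell line, taken at passage 32, differentiated as floating embryoid bodies for 10 days and then grown out on fibronectin in a chemically defined medium to passage 5. The outgrowth labelled control-OG had received the solvent DMSO at 0.01%. The outgrowth labelled SB-OG had received SB-431542, which blocks the kinases of type I TGF-β, activin and nodal receptors, at 10 µM in the embryoid body stage and 1 µM during outgrowth. For each condition 3 samples were mixed and read on 1 Affymetrix array, so n = 1 per condition, all from 1 cell line. No difference given here has a replicate check, and no test across samples was possible. The study asks how blocking TGF-β signalling bears on mesodermal differentiation of these cells.

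As background, the muscle receptor is a ring of subunits around an ion channel that opens when acetylcholine from the motor nerve binds. Fetal and newly formed muscle fibres carry the form with the γ subunit (CHRNG), which is replaced by the ε subunit (CHRNE) as the synapse matures. Agrin, released by the nerve, binds LRP4 on the muscle fibre, LRP4 activates the kinase MuSK, DOK7 supports that activation from inside the cell, and rapsyn (RAPSN) anchors the receptors into clusters.

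The deposited values are linear intensities per probe set. An array's background level was taken as the 95th percentile of 216 probe sets for olfactory receptor, taste receptor, keratin-associated protein, β-defensin and late cornified envelope genes, presumed silent here, and was 32.2 in control-OG and 27.3 in SB-OG. Intensities under it were set to it before a difference was taken. So "at least" marks the fold, higher or lower, of a gene that cleared this level on 1 array alone, as a lower bound of its size. An exception is a gene above background in SB-OG alone that read under 32.2 there. Its difference came out negative, because the 2 levels differ, and is no bound of its size. A probe set under the level on both arrays gets no fold. Where a gene had several probe sets, its value came from the one whose log2 intensity, averaged over the arrays, was highest, called its brightest. Log2 differences were taken as SB-OG minus control-OG, and a gene was counted from 2-fold upward. Between probe sets of the same gene the log2 difference had an SD of 0.47 over 4949 genes, a measure of technical spread within this pair of arrays and not spread between cultures. In RNA of mixed cells, more cells of a type and more RNA per cell cannot be told apart.

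SB-OG was at least 2-fold higher than control-OG for 7 of the 10 genes: CHRNA1, CHRNB1, CHRND, RAPSN, DOK7, MUSK and LRP4. CHRNG was 1.96-fold higher, AGRN was within 2-fold, and CHRNE was below background on both arrays. None of the 10 was 2-fold lower. Among the 12544 genes that cleared background on either array, 12.4% were 2-fold or more higher in SB-OG and 13.0% were 2-fold or more lower. Of the 10 members 9 cleared it, so the like count is 7 of 9. Of the 7 genes, 4 (CHRND, RAPSN, DOK7 and MUSK) were above background in SB-OG alone. Counted as probe sets, 13 of the 17 cleared background on an array. Of these 13, 10 were 2-fold or more higher, against 12.7% of all such probe sets, and none was 2-fold lower, against 12.0%. Without any floor, the median log2 difference over all 10 genes was 3.42, beside -0.05 over all 19775 genes. Rescaling SB-OG to the spiked hybridisation controls raised the log2 difference of every gene by 0.47. By construction this could not take any of the 7 genes below 2-fold or make any of the 10 lower, so it is no check on them. It brought the members 2-fold higher to 8 and turned the whole-array split to 24.1% higher and 7.26% lower.

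**Figure D1:**
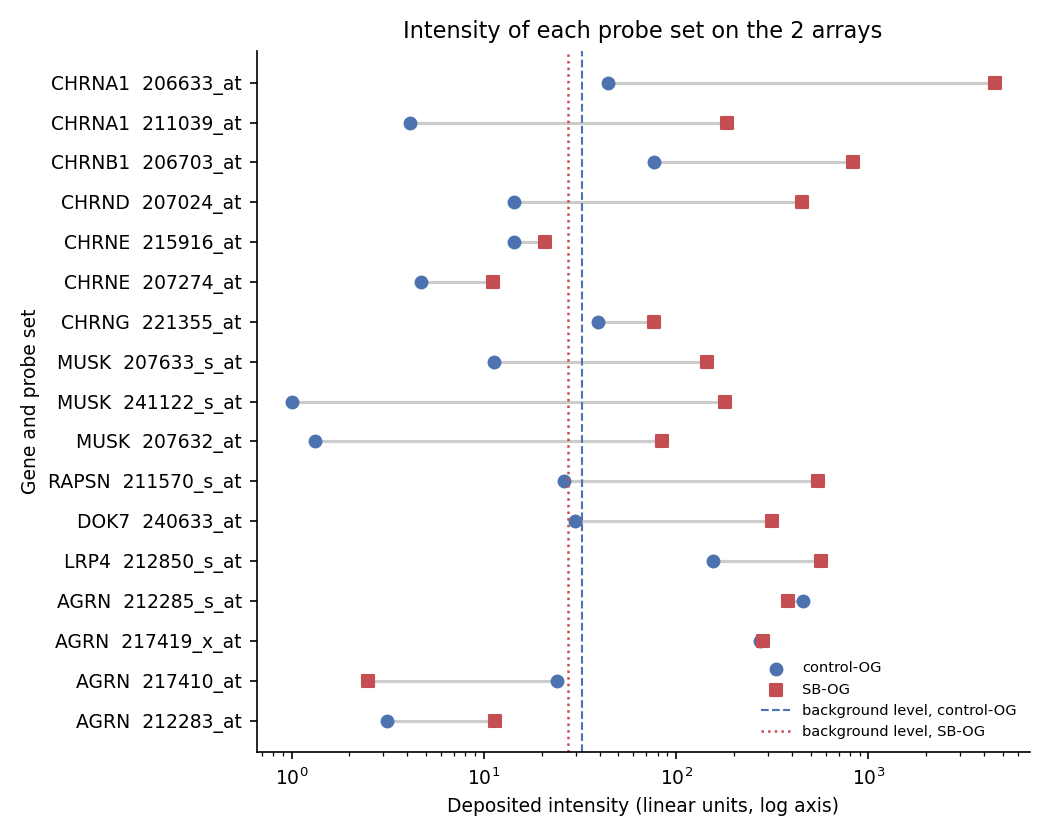
Deposited intensity (linear units, log axis) of all 17 probe sets of the 10 genes on the control-OG array (circles) and the SB-OG array (squares), with each array's background level as a vertical line (32.2 in control-OG, 27.3 in SB-OG). The 3 MUSK probe sets and both CHRNA1 probe sets run from low values in control-OG to well above background in SB-OG, both CHRNE probe sets lie left of both lines, and the 2 bright AGRN probe sets overlap.

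The stretches just upstream of the transcription start are shown for 4 of the genes that were at least 2-fold higher together, because this is where the short motifs read by the myogenic bHLH factors (E-boxes) and by ETS factors such as GABP (the N-box) are usually looked for in synaptic genes. The sequences are from RefSeq (GRCh38.p14) and cover the 150 bases before the start, 5′ to 3′ on the strand of the gene. The CHRNA1 stretch is chr2:174764473-174764622 (minus strand), the CHRND stretch chr2:232526010-232526159 (plus), the MUSK stretch chr9:110668641-110668790 (plus) and the CHRNB1 stretch chr17:7444911-7445060 (plus). A shorter stretch of 30 bases is given for CHRNE, chr17:4903142-4903171 (minus), as its N-box can be set beside that of CHRND. Capitals mark the E-box forms CAGCTG and CACCTG (the latter reads CAGGTG on the other strand) and the N-box CCGGAA (on the other strand TTCCGG).
CHRNA1: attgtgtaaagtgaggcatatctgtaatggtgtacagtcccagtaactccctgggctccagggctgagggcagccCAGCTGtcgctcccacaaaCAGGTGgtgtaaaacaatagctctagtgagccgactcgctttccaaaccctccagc
CHRND: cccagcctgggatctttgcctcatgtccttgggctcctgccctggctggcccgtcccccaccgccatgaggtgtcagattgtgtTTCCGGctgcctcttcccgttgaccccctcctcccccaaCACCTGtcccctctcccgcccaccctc
MUSK: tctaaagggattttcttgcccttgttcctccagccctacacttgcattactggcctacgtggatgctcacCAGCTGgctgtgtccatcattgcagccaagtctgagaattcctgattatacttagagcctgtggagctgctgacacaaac
CHRNB1: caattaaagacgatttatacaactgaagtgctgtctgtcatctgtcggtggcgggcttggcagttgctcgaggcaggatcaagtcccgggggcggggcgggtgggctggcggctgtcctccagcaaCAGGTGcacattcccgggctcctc
CHRNE: cccctaacagcCCGGAActaacaccctcct

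The promoter table held 6 of the 10 genes (CHRNA1, CHRNB1, CHRND, CHRNE, DOK7 and MUSK), with 2 starts for DOK7. Counted over the 250 bases before the start on both strands, CHRNA1 had CAGCTG from -75 to -70 and CAGGTG from -56 to -51. MUSK had CAGCTG from -80 to -75, CHRNB1 had CAGGTG from -24 to -19, and CHRND had CACCTG from -27 to -22 with an N-box from -66 to -61. CHRNE, which was below background on both arrays, had 2 CAGCTG sites, 1 CAGGTG site and an N-box from -62 to -57. DOK7 had neither of these E-box forms at either start and no N-box. Of 35116 promoters of that length in the table, some of them alternative starts of 1 gene, 14.0% held CAGCTG, 17.5% held CACCTG, 14.5% held CCGGAA and 61.8% held any E-box CANNTG, a set that includes both named forms. These are matches of letters, and no binding was measured.

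**Figure D2:**
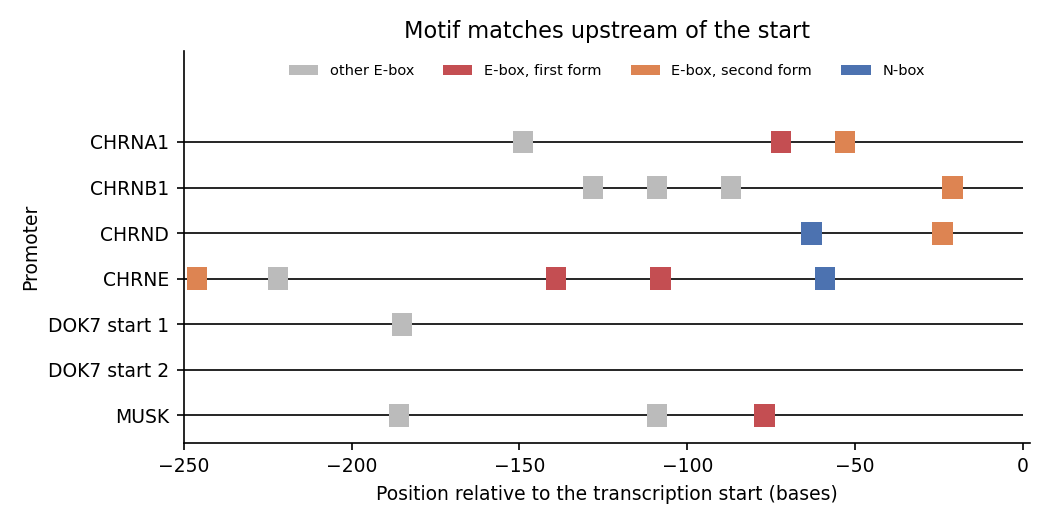
Positions of motif matches in the 250 bases before the transcription start (position in bases on the horizontal axis) for the 7 promoters of 6 genes, with the E-box CAGCTG as the first form, CACCTG as the second form, other CANNTG sites in grey and the N-box in blue. CHRNA1, MUSK, CHRND and CHRNB1 each have a match to a named E-box form, and so does CHRNE, which was below background on both arrays. DOK7, also at least 2-fold higher in SB-OG, has neither named form at either start. The shares of all promoters were counted over the 250 bases without regard to position.

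Among the receptor subunits, CHRNA1, the α subunit that carries most of the acetylcholine binding site, gave a signal of 44.1 in control-OG and 4529 in SB-OG by its brighter probe set (206633_at), a 103-fold difference. The control-OG value lay 1.37 times above background, so this level was barely measured there. Its other probe set (211039_at) read 4.13 in control-OG and 184 in SB-OG, a difference of at least 5.72-fold. Both CHRNA1 probe sets were therefore higher in SB-OG. The fold of 211039_at is a bound, as its control value was dim. Without a floor its log2 difference was 5.48, still smaller than the 6.68 of 206633_at. By size of positive difference, CHRNA1 ranked 6 of the 10431 genes above background on both arrays. It ranked 13 of the 12544 above background on either array, where some differences are lower bounds.

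The β subunit gene CHRNB1, which is part of both fetal and adult receptors, read 77.1 in control-OG and 833 in SB-OG with its only probe set (206703_at), a 10.8-fold difference. CHRND, encoding the δ subunit that both receptor forms also use, read 14.3 in control-OG and 450 in SB-OG (207024_at), at least 14.0-fold higher. The α, β and δ subunits, common to the fetal and adult receptor, were thus all more than 10-fold higher on the SB-OG array.

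The subunits that tell the fetal receptor from the adult one gave small or unmeasured values. CHRNG, the fetal γ subunit, read 39.1 in control-OG and 76.9 in SB-OG (221355_at), a 1.96-fold difference, just inside 2-fold. That difference was 1.03 on the log2 scale with the array medians set equal and 1.44 with scaling on the hybridisation controls, which puts it past 2-fold, and 0.56 with a higher background level. CHRNE, the adult ε subunit, read 14.3 in control-OG and 20.9 in SB-OG with 215916_at, and 4.71 and 11.1 with 207274_at. All 4 CHRNE values were below background, so no difference between the conditions can be read for it, and its level is bounded by the background only. CHRND and CHRNG are direct neighbours on chromosome 2 in the RefSeq gene table of GRCh38.p14, with no protein-coding gene between them. Levels of different probe sets are not comparable, so the proportion of γ to ε, or to the other subunits, cannot be given.

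Among the clustering genes, RAPSN, the intracellular scaffold that binds the receptor, read 26.0 in control-OG and 548 in SB-OG (211570_s_at), at least 17.0-fold higher. DOK7, the adaptor that binds and activates MuSK from the cytoplasm, read 29.8 in control-OG and 315 in SB-OG (240633_at), at least 9.76-fold higher. Both control-OG values lay just under the background level, and both SB-OG values more than 10 times above it.

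MUSK, the receptor tyrosine kinase at the centre of the pathway, was covered by 3 probe sets that read 11.3, 1.00 and 1.33 in control-OG. On SB-OG they read 144 (207633_s_at), 179 (241122_s_at) and 84.2 (207632_at). All 3 MUSK probe sets were below background in control-OG and above it in SB-OG. The bounds were at least 4.48-fold, at least 5.57-fold and at least 2.61-fold in that order, the last from the probe set that is specific by name, without the mark _s that stands for transcripts shared by a probe set.

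LRP4, the agrin receptor that is also used outside muscle, was well above background on both arrays, at 156 in control-OG and 568 in SB-OG (212850_s_at), a 3.64-fold difference. AGRN, encoding agrin, a heparan sulphate proteoglycan of many basement membranes as well as the nerve-derived clustering signal, read 456 in control-OG and 381 in SB-OG (212285_s_at). A further AGRN probe set (217419_x_at) read 273 in control-OG and 284 in SB-OG. The log2 differences of -0.26 and 0.06 were both smaller than the spread of 0.47 between probe sets of 1 gene, and that of the brighter one was 0.21 with scaling on the hybridisation controls. Its other probe sets were below background on both arrays, 217410_at at 24.0 and 2.50 and 212283_at at 3.15 and 11.4. AGRN was thus the only member measured on both arrays with no difference beyond the technical spread, and the array does not separate its nerve and muscle splice forms.

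**Figure D3:**
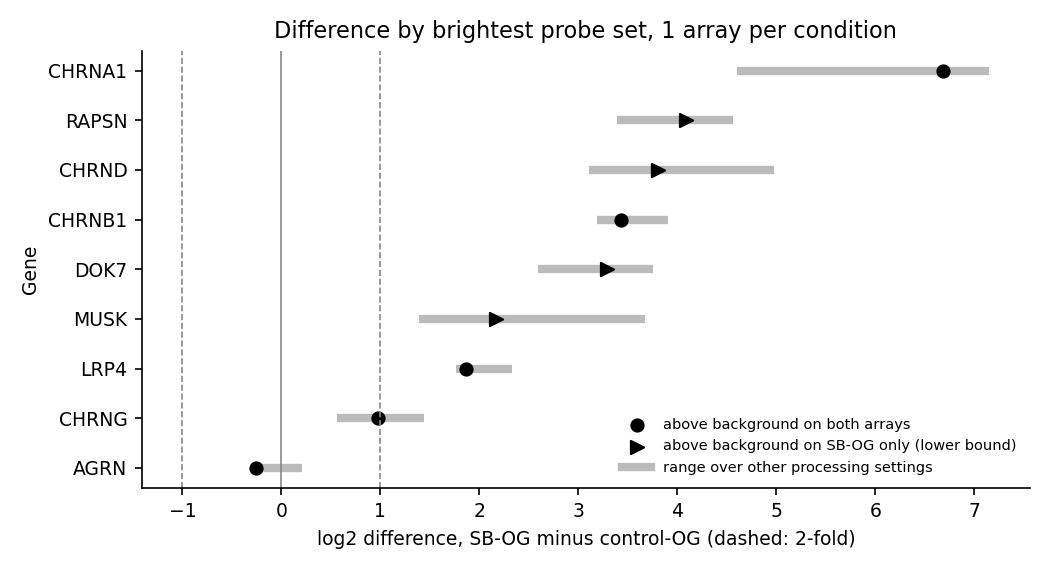
log2 difference (SB-OG minus control-OG) of the 9 genes above background on at least 1 array, by the brightest probe set, with lower bounds drawn as triangles and the range over the other processing settings as grey bars. CHRNA1 lies furthest right at 6.68, LRP4 is the smallest of the genes past 2-fold at 1.86, CHRNG sits at the 2-fold line at 0.97 and AGRN near 0 at -0.26.

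**Figure D4:**
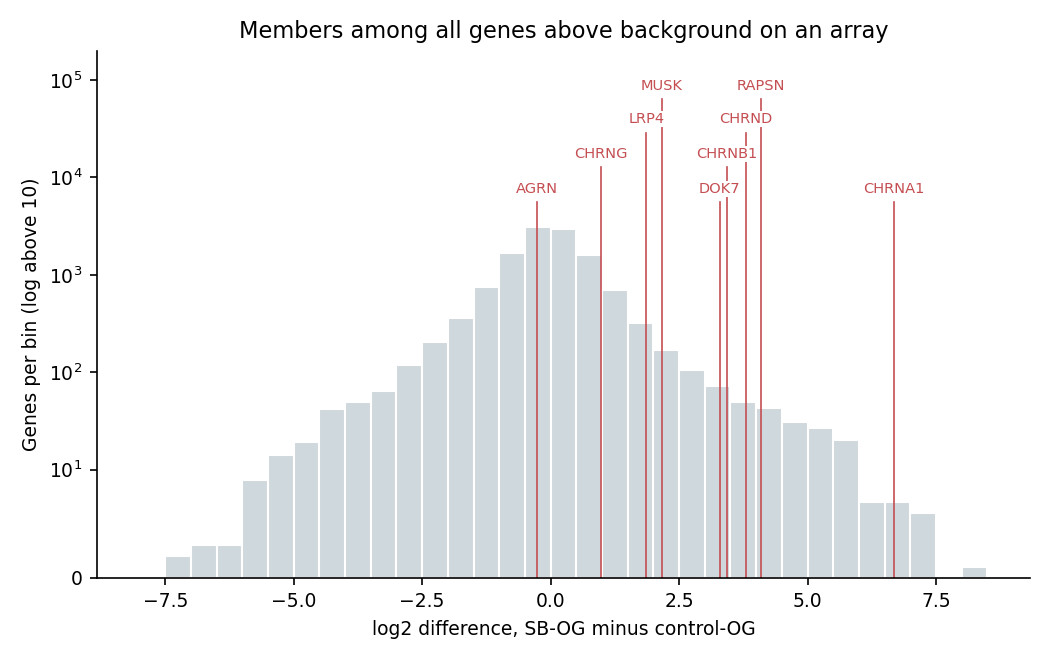
Number of genes (vertical axis, linear to 10 and logarithmic above) by log2 difference in bins of 0.5, over 12544 genes above background on at least 1 array, with lines at the 9 measured members. AGRN falls among the bulk of genes around 0, and CHRNA1 at 6.68 lies in the sparse right tail.

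The genes next to CHRNA1 in the order of differences, over these 2 arrays and among genes above background on both, were TTN, NEB and SMPX just above it and MYH3, SRL and MEF2C just below it. TTN, the giant sarcomere protein titin, differed from CHRNA1 by 0.11 in log2 difference, MYH3, the embryonic myosin heavy chain, by 0.13, and NEB, the thin filament protein nebulin, by 0.17. The remaining gaps were 0.23 for SRL, 0.26 for MEF2C and 0.52 for SMPX. With 2 arrays this likeness rests on 1 difference per gene, and all of these gaps but that of SMPX are smaller than the technical spread of 0.47 given above. NEB at 37.2 and SRL at 35.1 lay close to the background level of control-OG. Further probe sets gave log2 differences of at least 0.08 for NEB, at least 3.07 to at least 4.71 for TTN, at least 4.17 and 6.84 for MEF2C and at least 2.52 for CHRNA1.

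The remaining nicotinic subunits form the receptors of neurons and sensory cells. Of the 9 that a probe set names alone, 6 cleared background on an array. None was 2-fold higher in SB-OG and 1 was 2-fold lower, beside 12.4% and 13.0% of all genes above background. The median log2 difference was -0.29, beside -0.02 over all those genes. Only CHRNB2 cleared background on both arrays, so this median depends largely on the 2 background levels. CHRNA5 (11.6 in control-OG, 31.4 in SB-OG) and CHRNA6 (24.7 and 30.5) read higher in SB-OG, yet came out at -0.04 and -0.08. CHRNA2, CHRNA3 and CHRNA9 were above background in control-OG alone. CHRNA3, a subunit of ganglionic receptors, read 81.6 in control-OG and 4.30 in SB-OG, at least 2.99-fold lower. CHRNB2, the common partner subunit of brain receptors, read 68.7 and 68.2. That absence of 2-fold higher genes held under the scaling on hybridisation controls too, and 1 of the 6 was 2-fold higher without a floor.

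Genes for receptor assembly and for the glycosylation steps that are defective in congenital myasthenia were 2-fold lower for 2 of 7 measured and higher for none (median -0.82), but none was 2-fold lower with scaling on the hybridisation controls. Across all genes above background, as deposited, 13.0% were lower and 12.4% higher (median -0.02). RER1, which retains unassembled subunits early in the secretory pathway, was 2.10-fold lower, and DPAGT1, the first enzyme of N-glycan assembly, 2.02-fold lower. The receptor chaperone genes RIC3 and TMEM35A were below background on both arrays.

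Of 21 measured genes acting downstream of MuSK, 6 were 2-fold higher in SB-OG and 2 lower (median 0.63). Shares over all genes above background were 12.4% and 13.0% (median -0.02). CAV3, the muscle caveolin, read 3.07 in control-OG and 1959 in SB-OG, at least 60.8-fold higher. CDK5R1, the activator of the kinase CDK5, went from 11.7 to 290.2, at least 9.01-fold higher, whereas CDK5 itself was 2.56-fold lower. YES1, a kinase of the SRC family, was 4.01-fold higher. The list held 11 genes 2-fold higher and none lower when scaled on the hybridisation controls.

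Among 8 measured postsynaptic scaffold genes 2 were 2-fold higher and 1 lower (median -0.43). All genes above background gave 12.4% and 13.0% (median -0.02), and a departure of so few genes from these shares was not tested. SNTB1, a syntrophin of the dystrophin complex, was 6.76-fold higher (153.5 in control-OG, 1037 in SB-OG). DTNA, α-dystrobrevin, was 4.41-fold higher (56.7 and 250.02), with further probe sets from at least 0.24 to at least 1.83 (log2). The linker PLEC was 2.20-fold lower. UTRN, utrophin, the junctional relative of dystrophin, read 639 and 557. SCN4A, the adult muscle sodium channel that gathers at the junction, was below background on both arrays, at 7.17 and 9.41.

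Genes of the synaptic cleft and basal lamina were mixed, 2 of 12 being 2-fold higher and 5 lower (median -0.35). The shares over all genes above background were 12.4% and 13.0% (median -0.02). BCHE, butyrylcholinesterase, was 9.65-fold higher (188 in control-OG, 1818 in SB-OG). The acetylcholinesterase gene ACHE was below background on both arrays by the probe set the rule picked (28.6 in control-OG and 9.63 in SB-OG), and is not among the 12. Its other probe sets, both marked _s, read 3.97 and 3.33 in control-OG and were above background in SB-OG at 42.8 and 44.5, which gives log2 differences of at least 0.41 and 0.47. COLQ, the collagen tail that anchors the enzyme, read 31.3 and 21.9, below background on both. PRSS12, neurotrypsin, the protease that cleaves agrin, was at least 6.67-fold lower, LAMA2, the laminin chain of the muscle basement membrane, 6.56-fold lower, and NID2 2.63-fold lower. LAMB2, the laminin chain concentrated at the synapse, was 2.02-fold lower. The laminin chain LAMA4, the other gene higher in this list, was 2.20-fold higher, with further probe sets at 0.10 and 0.29 (log2). Only 2 genes of this list were 2-fold lower with scaling on the hybridisation controls.

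In the route from neuregulin to the ETS factors, which is known to act on synaptic gene promoters, 3 of 6 measured genes were 2-fold higher and none lower (median 0.87). For this list and the denervation list below, the shares over all genes above background were 12.4% higher and 13.0% lower (median -0.02). ERBB3, a neuregulin receptor, was at least 30.9-fold higher (26.9 in control-OG, 997 in SB-OG), GABPA, the ETS subunit that reads the N-box, 2.91-fold and ERBB2 2.17-fold. Further probe sets gave log2 differences within 2-fold for GABPA (0.50) and ERBB2 (-0.15). The ligand genes NRG1 and NRG2 and the receptor gene ERBB4 were below background on both arrays. Of 6 measured genes known to respond to denervation and inactivity, 2 were 2-fold higher and 1 lower (median 0.34), with TRIM63, a muscle ubiquitin ligase, at least 12.6-fold higher, NCAM1 5.74-fold higher and GADD45A 4.94-fold lower.

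**Figure D5:**
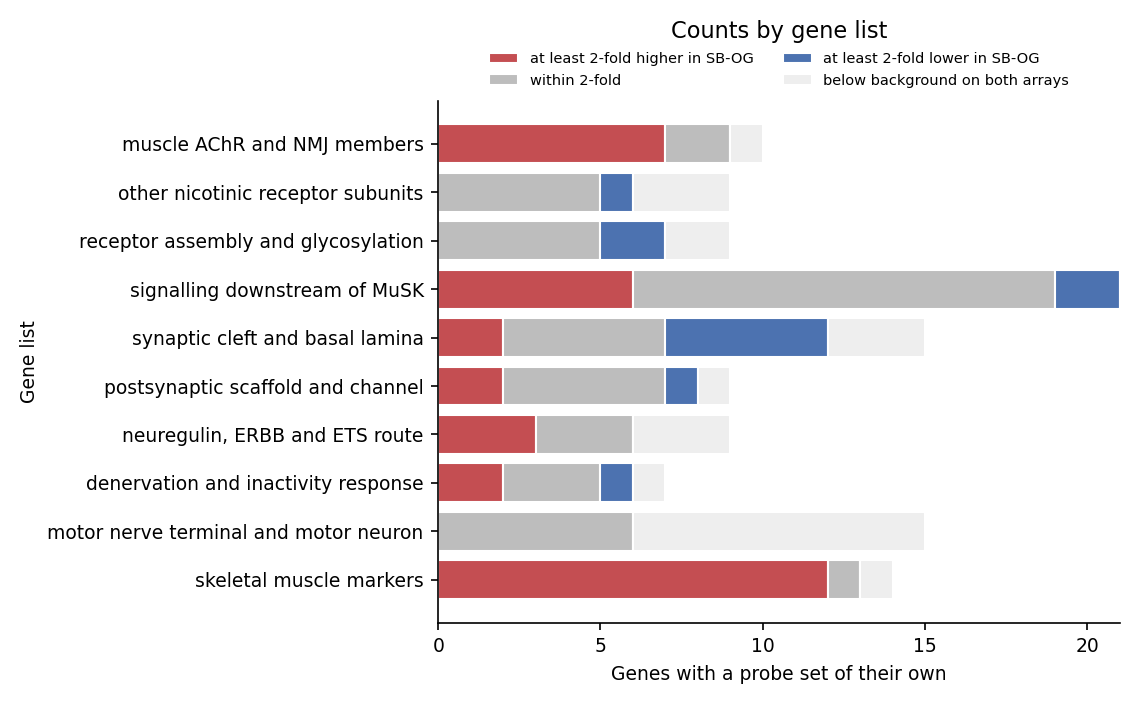
Number of genes in each list, counting genes that a probe set names alone, that were 2-fold or more higher in SB-OG, within 2-fold, at least 2-fold lower, or below background on both arrays. The 10 members (7 higher) and the skeletal muscle markers (12 of 14 higher) are the lists made up mostly of higher genes, and the motor nerve list has none past 2-fold by the brightest probe set.

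The nerve side of the junction was largely unmeasured. Of 15 genes of motor neurons and their terminals, 9 were below background on both arrays and none of the other 6 was 2-fold apart by its brightest probe set (median 0.02). By the same measure 12.4% of all genes above background were higher and 13.0% lower. A further probe set of SNAP25, a vesicle fusion protein, was higher in SB-OG by at least 1.23 (log2), whereas its brightest read 67.7 and 63.8. CHAT, the enzyme that makes acetylcholine, read 3.34 in control-OG and 10.6 in SB-OG, its vesicular transporter gene SLC18A3 8.50 and 3.57, and the motor neuron factors MNX1 and ISL1 at most 16.7. The defining markers of motor neurons were therefore below background on both arrays, where 9 of the 10 members were above it in SB-OG. The summed intensity of the 15 genes was 1701 in control-OG and 2331 in SB-OG, most of it from PREPL alone (1005 and 1615).

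Markers of muscle and of other cell types also differed between the arrays, and their part in the members' differences was not tested. The skeletal muscle markers went in the direction of most members, while most stromal and measured epithelial markers went the other way. Of all genes above background, 12.4% were 2-fold higher and 13.0% lower. Of 14 skeletal muscle markers, 12 were 2-fold or more higher in SB-OG (median 6.55), with a summed intensity of 533 in control-OG and 60098 in SB-OG, and MYF5 below background on both. The differentiation factor MYOG read 7.66 and 688, and MYOD1 7.25 and 1155. Of 7 measured neuron markers, 4 were 2-fold higher and 1, STMN2, lower (summed intensity 7131 and 11440), with ELAVL3, ELAVL4 and RBFOX3 below background. DCX was 42.8-fold higher in SB-OG, NEFM 38.3-fold and NEFL at least 14.6-fold, while STMN2 was at least 95.4-fold lower. Of 4 measured Schwann cell markers 1, ERBB3, was 2-fold higher (summed 303 and 1306), and SOX10 and CDH19 were below background. Of 9 stromal markers 6 were 2-fold lower and 1 higher (summed 80368 and 37137), and of 4 measured epithelial markers 3 were lower and 1 higher (summed 16539 and 488). Pluripotency markers were above background for 2 of 6, 1 of them (SOX2) 2-fold higher, with its other probe set at -0.07 (log2) (summed 182 and 337), and NANOG and LIN28A were below background on both arrays.

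Several of these values rest on probe sets whose specificity is limited. RAPSN and LRP4 were each read by 1 probe set marked _s, and both bright AGRN probe sets carry _s or _x, so these genes have no value above background from a probe set specific by name. The receptor subunits are paralogues, and the part of a subunit's signal that came from another was not measured.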

How the data were processed

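Both HUES9 outgrowth conditions were read on 1 array each, with groups taken from the sample titles. The authors deposited linear intensity values for 54675 probe sets per array. Which software summarised them is not given in the labels or files used here. The mean without the lowest and highest 2% was 150.03 (control-OG) and 150.02 (SB-OG), so the arrays appear scaled to 1 level, which hides a change in total RNA per cell. Log2 medians differed by 0.05 and values were used as deposited. Names come from the 2016 platform annotation, with symbols updated by gene ID, and 41091 probe sets had 1 gene. Other than the 10 members, genes were named as the up to 4 of each list furthest apart, from 2-fold upward, and the 3 on either side of CHRNA1. Further names (CHRNA2, CHRNA5, CHRNA6, CHRNA9, CHRNB2, RIC3, TMEM35A, UTRN, SCN4A, ACHE, COLQ, LAMA4, LAMB2, NRG1, NRG2, ERBB4, SNAP25 and those of the marker and nerve lists) were picked once their values had been seen. The members and lists were chosen with earlier results of these data known. The calculation was checked on simulated arrays. Precision is limited by the number of arrays. Alternatives were quantile, lowess (span 0.4), centred and hybridisation-control scaling, the mean of probe sets, probe sets without _s, _x or _a, a 99th percentile background, no floor, a pseudocount of 16 and a 3-fold threshold. Python 3.11.15, numpy 2.4.6, pandas 2.3.3 and statsmodels 0.14.6 were used.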

Additional observations from a re-analysis of the deposited data

How the results depend on the processing

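The count of members at least 2-fold higher was 7 as reported and ran from 5 to 8 over the 10 alternatives, with 5 from name-specific probe sets alone, which leaves out RAPSN and LRP4. The count 2-fold lower was 0 in all 10. The log2 difference ran from 4.60 to 7.15 for CHRNA1, 3.19 to 3.90 for CHRNB1, 3.11 to 4.97 for CHRND, 0.56 to 1.44 for CHRNG, 1.39 to 3.68 for MUSK, 3.40 to 4.56 for RAPSN, 2.59 to 3.76 for DOK7, 1.76 to 2.33 for LRP4 and -0.31 to 0.21 for AGRN. No gene past 2-fold changed sign. The share of all genes 2-fold higher was 24.1% with scaling on the hybridisation controls and 6.33% past 3-fold, and the share lower 7.26% and 6.37%.

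With scaling on the hybridisation controls, list medians were 0.18 for other nicotinic subunits, -0.35 for assembly, 1.10 for signalling downstream of MuSK, 0.12 for the cleft, 0.037 for the scaffold, 1.34 for the neuregulin route, 0.81 for the denervation response and 0.49 for the motor nerve. Genes lower then numbered 0 for assembly, 0 for signalling, 2 for the cleft and 0 for the scaffold, and genes higher 11 for signalling and 1 for the motor nerve. With only probe sets specific by name, the assembly list had 2 genes higher and 0 lower, signalling 3 higher and 1 lower (median 0.10), the cleft 1 higher (median -1.24), and the neuregulin route a median of 1.54. With the mean of all probe sets, 0 other nicotinic subunits, 1 assembly gene and 1 signalling gene were lower, 1 cleft gene was higher, and the neuregulin median was 0.33. Without a floor, 1 other nicotinic subunit was higher and 2 lower, and 2 scaffold genes were lower. With the higher background, 0 other nicotinic subunits were lower. Centring left 1 assembly gene lower, and the pseudocount 1 assembly and 2 scaffold genes lower. Past 3-fold, 0 other nicotinic subunits, 0 assembly, 0 signalling, 2 cleft and 0 scaffold genes were lower, and 3 signalling, 1 cleft and 1 neuregulin gene higher. Of the markers, 7 skeletal muscle genes were higher by name-specific probe sets, and 3 Schwann cell markers without a floor. The cause of these moves was not tested beyond what each setting does by construction. Signal close to background limits CHRNE, CHRNG and the control-OG values of CHRND, RAPSN, DOK7 and MUSK.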
